A study of Mus musculus with 10 samples.

Results

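Lyz1 and Lyz2 are the paired lysozyme genes of the mouse, and they were taken as the 2 entries with those symbols among the 55487 genes of the deposited count table. They were chosen by their levels in these same libraries, as genes that were higher in the 8wk STZ group than in Control, so their levels and fold changes below are descriptions and support no test. RNA was sequenced from green fluorescent, viable cells sorted from the retina of Cx3cr1GFP/+ mice, whose microglia and other Cx3cr1-expressing myeloid cells carry GFP in place of 1 copy of the fractalkine receptor gene. All groups shared that genotype. There were 3 Control littermates, 3 mice labelled 4wk STZ and 4 mice labelled 8wk STZ, with both retinas of an animal pooled into 1 library. STZ is streptozotocin, a toxin of pancreatic beta cells that is used to make mice diabetic. The sort takes other Cx3cr1-expressing myeloid cells along with microglia. A single Control set serves both times, and the ages of the animals and the sorting or sequencing batches are not stated in the labels, so that time after STZ, age and any batch cannot be told apart.

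Each library held 33266838 to 62903489 reads counted to genes, and the ranges of the groups overlapped. Replicates of a group differed by more than sampling noise. By the design stated above, each library was counted as 1 animal. A principal component analysis of log2 CPM set 2 libraries away from the rest, Control 3 at 115.6 on the first component and 4wk STZ 3 at -128.4 on the second, so the lysozyme values are also given without them.

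Lysozymes cut the peptidoglycan of bacterial cell walls. Lyz2 encodes the M type lysozyme of macrophages, monocytes and neutrophils, and its locus drives the LysM-Cre allele that is used to delete genes in those cells. Lyz1 encodes the P type lysozyme of intestinal Paneth cells and lies next to Lyz2 as the product of a gene duplication. Lyz2 is also among the genes that microglia raise in many disease and injury models.

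Both genes lie on the minus strand of chromosome 10 in GRCm38, Lyz2 (ENSMUSG00000069516) at 117277331-117282321 and Lyz1 (ENSMUSG00000069515) at 117287797-117292868, with 4 exons each. Their transcripts were identical at 1211 of 1262 aligned bases (95.96%), and their coding sequences at 422 of 444 bases (95.05%). Exon 3, of 79 bases, was the same in both. Exon 2 is shown because it is the longer of the internal coding exons and holds the few bases by which a read there can be given to 1 gene. Capitals mark the 6 bases of 165 that differ between the genes (positions 117280641-117280805 for Lyz2 and 117291029-117291193 for Lyz1, 5′ to 3′ on the minus strand).
Lyz2: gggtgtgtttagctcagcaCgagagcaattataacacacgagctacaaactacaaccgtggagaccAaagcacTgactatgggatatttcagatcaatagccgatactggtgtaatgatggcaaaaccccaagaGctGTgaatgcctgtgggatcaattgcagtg
Lyz1: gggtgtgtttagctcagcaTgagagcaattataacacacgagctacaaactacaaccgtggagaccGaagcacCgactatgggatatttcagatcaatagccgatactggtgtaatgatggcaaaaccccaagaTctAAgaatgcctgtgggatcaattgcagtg
No stretch of 150 bases, the length of 1 sequenced read, was shared unchanged: all 1114 such windows of the Lyz1 transcript differed from Lyz2, by 1 to 15 bases with a median of 6. The longest run of bases found unchanged in both transcripts was 118 bases. Of 50-base windows, 195 of 1214 (16.1%) occurred unchanged in Lyz2. How reads that fit several genes were counted is not stated in the labels, so the split of reads between the paralogs is uncertain and their sum is given beside them.

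The promoters are shown because both genes were higher in the same group. The windows run from 250 to 50 bases before the RefSeq start (RefSeq, GRCm38), at 117282322-117282522 for Lyz2 and 117292918-117293118 for Lyz1, 5′ to 3′ on the minus strand, and capitals mark matches to the motifs searched.
Lyz2: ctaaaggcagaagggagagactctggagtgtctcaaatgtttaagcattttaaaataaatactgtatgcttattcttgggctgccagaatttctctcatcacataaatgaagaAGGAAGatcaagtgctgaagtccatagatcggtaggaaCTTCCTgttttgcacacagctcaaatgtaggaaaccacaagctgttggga
Lyz1: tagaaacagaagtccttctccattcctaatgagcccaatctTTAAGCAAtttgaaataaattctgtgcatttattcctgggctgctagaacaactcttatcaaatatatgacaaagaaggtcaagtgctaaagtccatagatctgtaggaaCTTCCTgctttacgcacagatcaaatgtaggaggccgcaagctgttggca
The promoter windows were identical at 151 of 199 aligned bases (75.88%). The 5 letter patterns below were searched on both strands. AGGAAG, a core of the ETS family to which the myeloid factor PU.1 belongs, matched in Lyz2 at 2 places and in Lyz1 at 1 place, and in 23.7% of 27025 RefSeq promoter windows of the same length. A match of this kind lay 99 bases before the RefSeq start in both genes. The GENCODE transcript of Lyz2 starts further upstream, at 117282321, directly beside its window. Distances from that start are therefore shorter for Lyz2. TTNNGNAA, for the C/EBP family, matched at 1 place in Lyz1, 209 bases before the start, and not in Lyz2, against 32.5% of promoters. CCGGAAG, for GABP, which shares its last letters with the ETS core, matched in neither window, against 4.04% of promoters. TGANTCA, for AP-1, also matched in neither, against 5.77% of promoters. The letters TATAAA of the core promoter element matched in neither, against 9.52%. That element usually lies nearer to the start than these windows reach when counted from the RefSeq start. A match is a description of letters and not a binding site.

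Lyz2, the myeloid lysozyme, was higher in each of the 4 8wk STZ libraries than in any other library. In CPM, the field's usual count relative to library size (here with library sizes scaled by TMM, a trimmed mean that corrects for composition), it stood at 393, 156 and 383 in Control 1 to 3, at 457, 586 and 289 in 4wk STZ 1 to 3, and at 1608, 871, 853 and 1525 in 8wk STZ 1 to 4. The 8wk STZ libraries fell into a higher pair, 1 and 4, and a lower pair, 2 and 3, and the 4wk STZ and Control libraries overlapped. The means were 311 ± 134 (SD, n = 3) in Control, 444 ± 149 (SD, n = 3) in 4wk STZ and 1214 ± 408 (SD, n = 4) in 8wk STZ. The lowest 8wk STZ library held 2.17 times the level of the highest Control library and 1.46 times that of the highest 4wk STZ library. These levels rest on 6920 to 19697 Lyz2 reads in the Control libraries, 9299 to 28297 in 4wk STZ and 42887 to 101358 in 8wk STZ, so counting error is small beside the differences between animals. As a share of all counted reads Lyz2 made up 0.0152% to 0.0387% of a Control library and 0.0884% to 0.161% of an 8wk STZ library. In this bulk RNA, fewer or more cells of a type and less or more RNA per cell cannot be told apart.

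Lyz1, the Paneth-cell lysozyme, followed the same order of groups at a much lower level. It stood at 6.96, 3.26 and 7.22 CPM in Control 1 to 3, at 12.2, 9.03 and 3.86 CPM in 4wk STZ 1 to 3, and at 27.7, 21.4, 13.5 and 27.7 CPM in 8wk STZ 1 to 4. All 8wk STZ libraries were again above all others, but the margin over 4wk STZ was narrow: the lowest 8wk STZ library held 1.11 times the level of the highest 4wk STZ library and 1.87 times that of the highest Control library. The group means were 5.82 ± 2.21 CPM (SD, n = 3) in Control, 8.35 ± 4.20 CPM (SD, n = 3) in 4wk STZ and 22.6 ± 6.75 CPM (SD, n = 4) in 8wk STZ. The lowest library held 124 Lyz1 reads and the highest 1748.

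**Figure D1:**
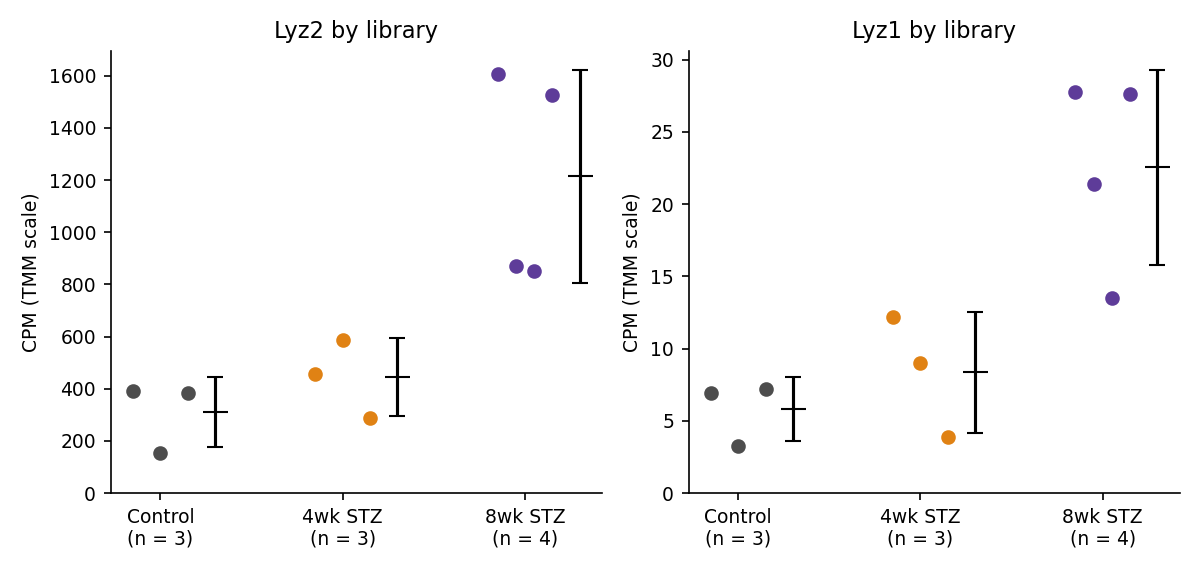
Level of Lyz2 and Lyz1 in CPM on linear axes from 0, 1 point per library in replicate order, with the mean and SD of each group beside its points. The 8wk STZ points lie above all Control and 4wk STZ points for both genes, with Lyz2 at 853 to 1608 CPM against 156 to 586 CPM.

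The size of the difference was nearly the same for both genes. In an edgeR fit over all 10 libraries, the 8wk STZ minus Control log2 fold change was 1.97 (SE 0.379) for Lyz2, 1.95 (SE 0.436) for Lyz1 and 1.97 (SE 0.378) for their summed reads. The 4wk STZ minus Control value was 0.52 for each of the 3, with SE 0.381, 0.442 and 0.380. The 8wk STZ minus 4wk STZ value was 1.45 (SE 0.370) for Lyz2, 1.43 (SE 0.426) for Lyz1 and 1.45 (SE 0.370) for the sum. Without Control 3 and 4wk STZ 3, the 8wk STZ minus Control value was 2.15 for Lyz2 and 2.14 for Lyz1, the 4wk STZ minus Control value 0.93 and 1.05, and the 8wk STZ minus 4wk STZ value 1.22 and 1.09. These contrasts share libraries: the first and the second share the Control libraries, and the first and the third the 8wk STZ libraries. Over all genes tested the median log2 fold change was -0.0061 between 8wk STZ and Control.

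At an adjusted p under 0.05, both genes were called higher in 8wk STZ than in Control, where 2.37% of 18957 genes were called in either direction and 0.971% were called higher; since that contrast chose the genes, nothing is read from the count. Lyz2 and Lyz1 ranked 23 and 24 by log2 fold change among the 184 genes called higher. Every 8wk STZ library was above every Control library for 8.91% of genes, and above every 4wk STZ library for 8.39%. By the quasi-likelihood test, neither gene was called between 8wk STZ and 4wk STZ, where 0.918% of genes were. DESeq2 and edgeR's likelihood ratio test called both there, among 995 and 759 called of 18957 genes. That contrast uses the same 8wk STZ libraries that chose the genes, so nothing is read from those calls either. No gene of any kind was called between 4wk STZ and Control (0% of genes) by edgeR's quasi-likelihood test, with 1849 genes at an unadjusted p under 0.05; limma-voom called 0, edgeR's likelihood ratio test 244 and DESeq2 299, none of them Lyz1 or Lyz2.

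The 8wk call was not held by every subset of the libraries. With 1 library left out at a time, Lyz2 was called in 2 of 7 fits (those without 8wk STZ 2 or 8wk STZ 3) and Lyz1 in 0 of 7, while the log2 fold change stayed between 1.64 and 2.17 for Lyz2 and between 1.67 and 2.14 for Lyz1. The authors' deposited table of comparisons covers 14475 genes of these same libraries and gives a likelihood ratio score per gene. In it, the 8wk log2 fold change was 1.96 for Lyz2 (false discovery rate 7.58e-08) and 1.95 for Lyz1 (0.000155). It gave 0.52 for Lyz2 and 0.53 for Lyz1 at 4wk, with false discovery rates of 0.624 and 0.765. Those rates are no separate support, since the same libraries chose the genes. At 8wk the fits here gave Lyz2 and Lyz1 adjusted p of 0.0241 and 0.0453 by edgeR's quasi-likelihood test. By edgeR's likelihood ratio test they were 3.2e-05 and 0.000851.

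**Figure D2:**
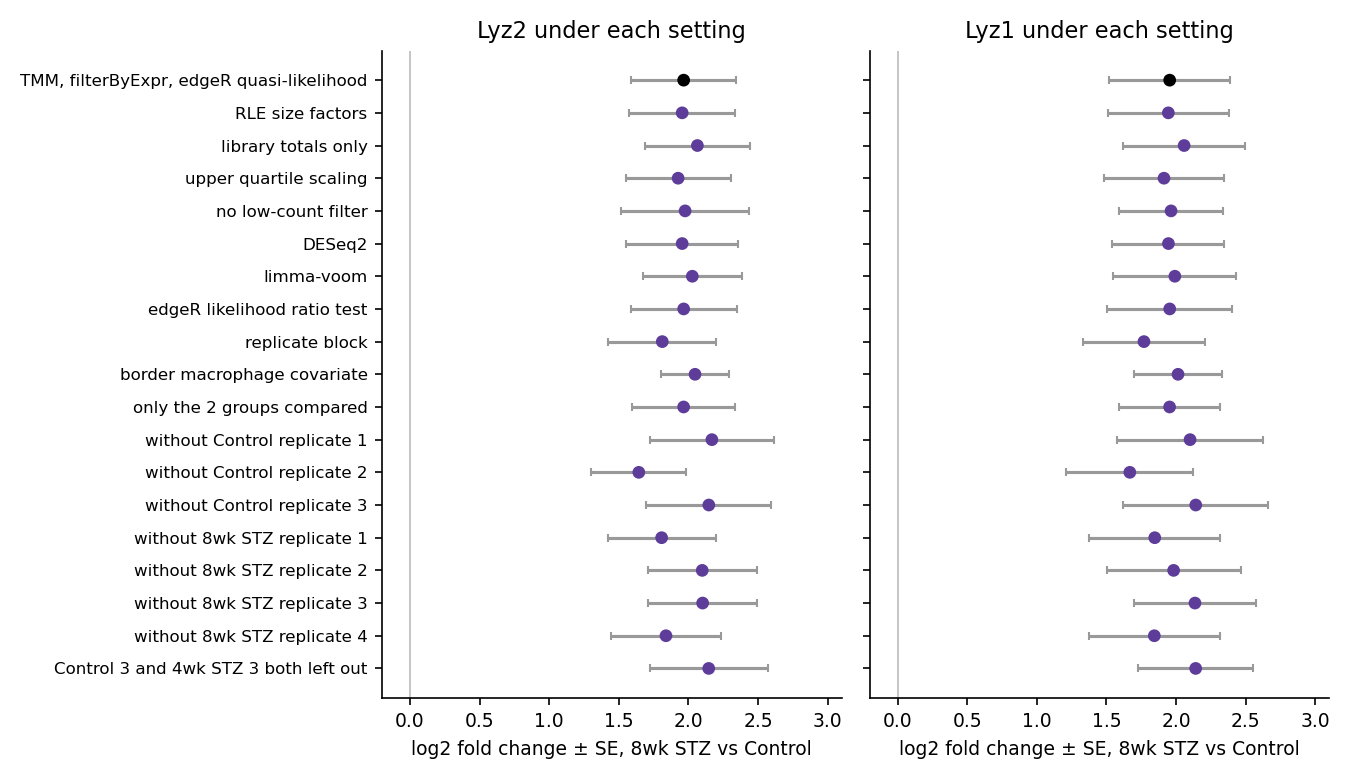
Log2 fold change of Lyz2 and Lyz1 between 8wk STZ and Control under each processing setting or left-out library, with bars of 1 SE and the reported fit in black. Values keep to 1.64 to 2.17 for Lyz2 and 1.67 to 2.14 for Lyz1 over the settings drawn.

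Animals of a group differed more in these genes than in most genes. The SD of Lyz2 log2 CPM was 0.76 in the Control libraries, 0.52 in 4wk STZ and 0.50 in 8wk STZ, against medians of 0.26, 0.26 and 0.21 over 10175 genes. Only 6.05%, 16.4% and 6.91% of those genes had a larger SD in the same group. For Lyz1 the SD was 0.64, 0.85 and 0.49, with 9.98%, 3.84% and 7.23% of genes above it. The spread within 8wk STZ was no larger than in the other groups by the ratio of extremes: the highest Lyz2 library was 2.53 times the lowest in Control, where Control 2 was low, 2.03 times in 4wk STZ and 1.88 times in 8wk STZ. For Lyz1 these ratios were 2.21, 3.16 and 2.06.

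Per kilobase of exon, a scale on which genes can be compared, Lyz2 was at 236 ± 102 CPM per kb in the Control libraries, 338 ± 113 in 4wk STZ and 923 ± 310 in 8wk STZ (SD, n = 3, 3 and 4). This level ranked 211, 137 and 46 among 18925 genes. Lyz1 was at 4.60 ± 1.75, 6.61 ± 3.32 and 17.9 ± 5.34 CPM per kb (SD, n = 3, 3 and 4) and ranked 6395, 5153 and 2514. By this rank Lyz2 was among the abundant transcripts of the sorted cells, and Lyz1 was not.

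Lyz1 reads made up a small share of the reads of both genes, from 1.32% to 2.59% over the libraries. The share was 1.74%, 2.05% and 1.85% in Control 1 to 3, 2.59%, 1.52% and 1.32% in 4wk STZ 1 to 3, and 1.70%, 2.40%, 1.55% and 1.78% in 8wk STZ 1 to 4. Exact 95% Clopper-Pearson intervals, which cover counting error only, ran from 1.10-1.57% in 4wk STZ 3 to 2.39-2.81% in 4wk STZ 1. The group means of 1.88% ± 0.159, 1.81% ± 0.686 and 1.86% ± 0.372 (SD, n = 3, 3 and 4) lay closer together than the libraries within a group. The highest shares, in 4wk STZ 1 and 8wk STZ 2, had intervals that did not overlap those of the other libraries of their groups. Whether reads of Lyz2 transcripts were counted as Lyz1 was not tested.

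**Figure D3:**
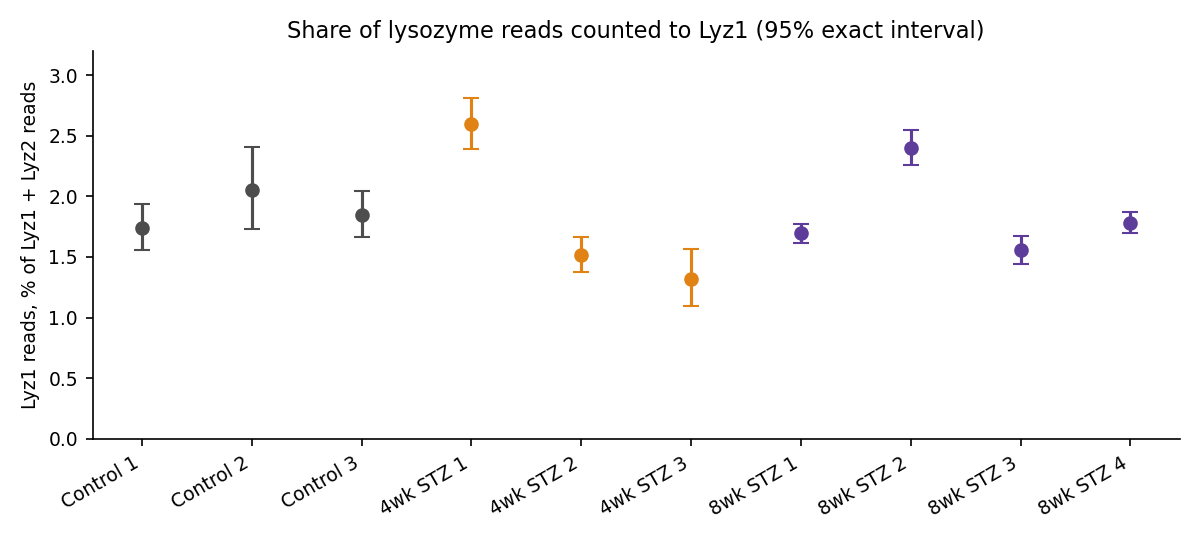
Lyz1 reads as a percent of the reads of Lyz1 and Lyz2 in each library, with exact 95% intervals of counting error. Shares lie between 1.32% and 2.59%, and the 3 groups overlap.

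Among the 9369 genes whose mean log2 CPM reached 2, Lyz1 had the pattern most like that of Lyz2 over the 10 libraries, with Pearson r = 0.960 in log2 CPM. The 5 other genes most like it were Apoe (r = 0.957), which encodes the lipid carrier apolipoprotein E, Trf (0.954), which encodes the iron carrier transferrin, Slc31a2 (0.946), a copper transporter gene, Rnf25 (0.939), a ubiquitin ligase gene, and Fgd2 (0.937). The libraries share the group differences, so these values are descriptions over 10 points. Apoe stood at 4487, 1902 and 3783 CPM in Control, at 4118, 5061 and 2431 in 4wk STZ, and at 14667, 7754, 5178 and 19382 in 8wk STZ. Its 8wk STZ libraries too were above all others, and Control 2 was low for Apoe as for Lyz2. The edgeR log2 fold change of Apoe at 8wk was 1.79 (SE 0.462, adjusted p = 0.0747), so Apoe was not called. Of these 5 genes, Fgd2 rose at 8wk, from 359 ± 40.2 CPM (SD, n = 3) to 632 ± 70.2 CPM (SD, n = 4), a log2 fold change of 0.81 (edgeR adjusted p = 0.0184).

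After the group means were taken out, the 5 genes most like Lyz2 were P2ry6 (r = 0.993), which encodes a nucleotide receptor of phagocytosis in microglia, Ctns (0.940), the lysosomal cystine transporter gene, Gatc (0.940), Gpm6a (0.936) and Rnf145 (0.931). Lyz1 ranked 53 on this measure, with r = 0.856. The 5 are the highest of 9369 correlations over 10 libraries, so their values are descriptions and no test of shared regulation. Their 8wk STZ minus Control log2 fold changes were -0.12 for P2ry6, -0.43 for Ctns, -0.08 for Gatc, -1.29 for Gpm6a and 0.31 for Rnf145, none called.

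**Figure D4:**
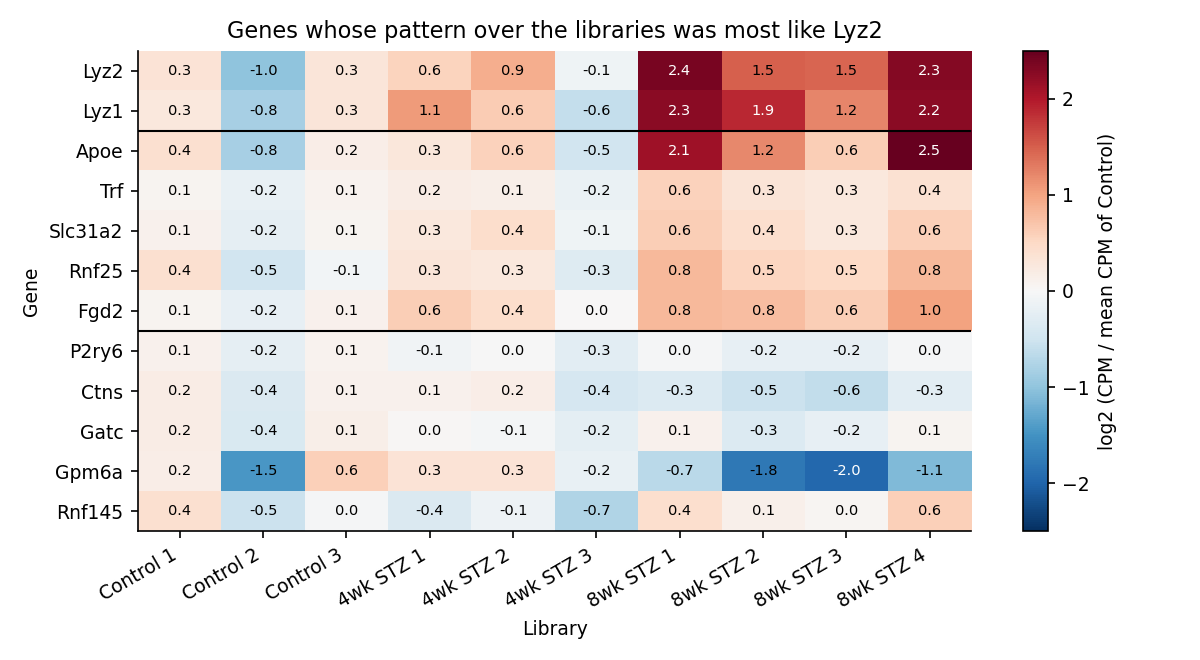
Log2 of the CPM of each gene over its mean CPM in Control, 1 column per library, for Lyz2 and Lyz1 (top), the genes most like Lyz2 over all libraries (middle) and those most like it within groups (bottom). Lyz2, Lyz1 and Apoe are high in all 8wk STZ columns, and Control 2 is low for each of them.

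No tested neighbour of the lysozyme genes was called at 8wk against Control, where 2.37% of all genes tested were. Within 250 kb, 4 named genes passed the filter on low counts. The 8wk log2 fold change was 0.16 for Cct2, a chaperonin subunit gene, with an edgeR adjusted p of 0.591. It was -0.49 for Frs2, an adaptor of growth factor receptors (0.402), 0.20 for Yeats4, a reader of acetylated histones (0.688), and -0.23 for Cpsf6, an RNA cleavage factor gene (0.499). The lysozyme-like gene 9530003J23Rik, in the same cluster, had 8 reads in all: 0 in each Control library, 2 in 4wk STZ 1, and 3, 1, 1 and 1 in 8wk STZ 1 to 4.

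Of the other lysozyme and antimicrobial genes tested, 1 was called at 8wk against Control. Over all genes tested, 0.971% were called higher there and 1.4% lower. Of 9 other members of the lysozyme and lactalbumin family, only Lyzl4 passed the filter, with a log2 fold change of 1.02 (SE 1.06, edgeR adjusted p = 0.754). Of 11 tested genes of secreted and granule antimicrobial proteins (24 listed), 1 rose at 8wk and 0 fell, and the median log2 fold change was -0.09. The riser was Wfdc17, a whey acidic protein gene of activated macrophages, at 22.3 ± 4.78 CPM in 8wk STZ (SD, n = 4) against 7.14 ± 3.48 in Control (SD, n = 3), a log2 fold change of 1.64 (edgeR adjusted p = 0.0436). That call held in 1 of 7 fits with a library left out.

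Genes of peptidoglycan sensing and lysosomal glycosidases had negative medians at 8wk. Over all genes tested, 0.971% rose at 8wk and 1.4% fell, so a list of 17 with 0 called is near that share. Of 17 tested genes of peptidoglycan sensing and handling (18 listed), 0 were called at 8wk, with a median log2 fold change of -0.18. Among them Tlr2, the receptor of bacterial lipoproteins, had -0.34 (edgeR adjusted p = 0.192), and Slc46a3, a lysosomal transporter gene, -0.37 (0.103). Of 16 lysosomal glycosidase genes, 0 rose and 2 fell at 8wk, with a median of -0.16. Those were Glb1, the beta-galactosidase gene (-0.49, edgeR adjusted p = 0.0226), and Idua, the iduronidase gene (-0.51, 0.0486). With a library left out, Glb1 was called in 1 of 7 fits and Idua in 0 of 7.

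Transcription factor genes known at myeloid lysozyme promoters had a small median difference at 8wk. Over all genes tested, 0.971% rose at 8wk and 1.4% fell, so a list of 17 with 0 called is near that share. Of 17 tested (19 listed), 0 were called at 8wk, with a median log2 fold change of 0.05. Spi1, which encodes PU.1, had 0.19 (edgeR adjusted p = 0.457) and Irf8 0.18 (0.354). Of 25 other genes that disease-associated microglia raise, 1 rose and 1 fell, with a median of -0.04. Clec7a, a receptor of fungal glucans, rose by 0.48 (edgeR adjusted p = 0.0382), and Ctsl, a lysosomal protease gene, fell by 0.34 (0.0345). Leaving out a library kept the Clec7a call in 1 of 7 fits and the Ctsl call in 0 of 7. At 4wk, 0 genes of any of the 14 lists were called, and neither was any other gene tested. Not being called there says nothing of the size of a difference. Clec7a had 0.63 at 4wk (SE 0.110, edgeR adjusted p = 0.232) and Ctsl -0.13 (SE 0.0769, edgeR adjusted p = 0.633).

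Markers of the sorted cells showed microglia in every library. The 11 microglia markers summed to 39607-44534 CPM in the Control libraries, 36306-39377 in 4wk STZ and 31814-34767 in 8wk STZ. Of these, 1 rose at 8wk (Siglech, 0.78 on the log2 scale, edgeR adjusted p = 0.0135) and 4 fell (Csf1r, P2ry13, Fcrls and Tmem119), with a median of -0.32. Lyz2 was highest in the group in which the summed microglia markers were lowest. Siglech and Csf1r kept their call in 7 of 7 fits with a library left out, P2ry13 in 5, Fcrls in 4 and Tmem119 in 2. Over all genes tested, 0.971% rose at 8wk and 1.4% fell, and the marker counts below stand beside the same shares.

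Border macrophages, which also express Cx3cr1 and Lyz2, could be in the gate, and within groups their markers and Lyz2 ordered the libraries almost alike. The 16 markers summed to 867, 412 and 629 CPM in Control 1 to 3, to 416, 765 and 366 in 4wk STZ 1 to 3, and to 830, 438, 224 and 1124 in 8wk STZ 1 to 4. The order of the libraries by this sum was the order by Lyz2 within Control and within 4wk STZ, and among the 8wk STZ libraries only 1 and 4 changed places. Between groups the ranges of the sum overlapped, and 0 of 14 tested markers were called at 8wk, with a median log2 fold change of 0.12. In 8wk STZ 3, the library with the lowest sum, Cd163 was at 0 CPM, Lyve1 at 0.318, Pf4 at 5.17 and Mrc1 at 6.90, while Stab1 was at 149 and made up most of the sum. Lyz2 stood at 853 CPM in that library, above every Control and 4wk STZ library. With the mean log2 CPM of 14 of these markers as a covariate, the 8wk log2 fold change was 2.05 (SE 0.242) for Lyz2. For Lyz1 it was 2.01 (SE 0.319). Without the covariate the values were 1.97 (SE 0.379) and 1.95 (SE 0.436), so the spread left between animals was smaller with it. The part of border macrophages in the Lyz2 level of each library was not tested.

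**Figure D5:**
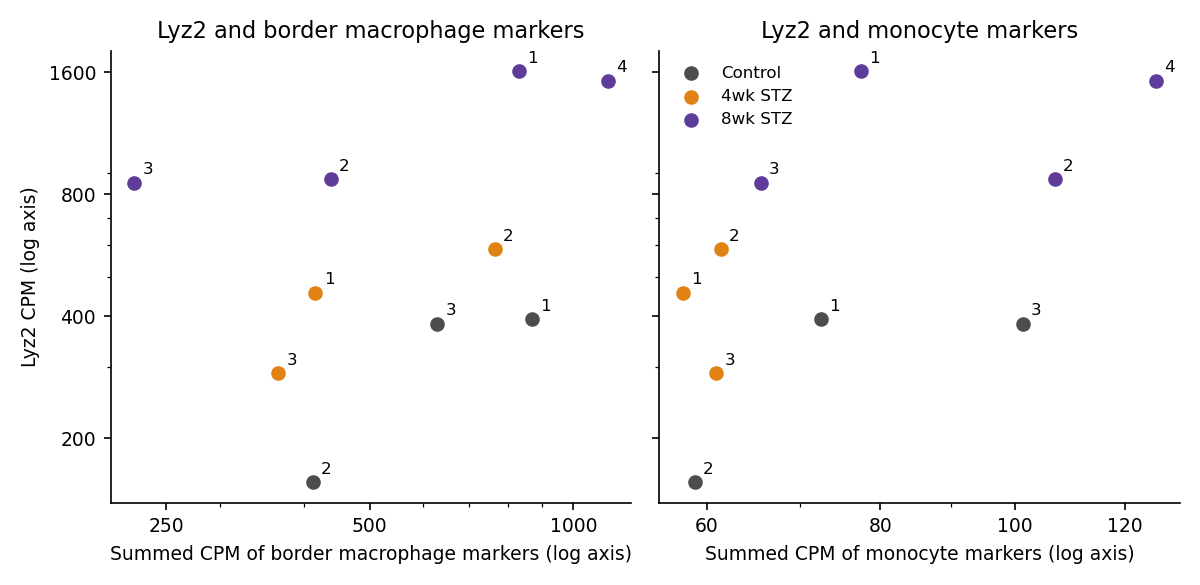
Lyz2 CPM against the summed CPM of border macrophage markers (left) and monocyte markers (right), both axes on a log scale, 1 numbered point per library. The 8wk STZ points lie above all others in Lyz2, at sums from 224 to 1124 CPM for border macrophage markers and from 65.6 to 126 CPM for monocyte markers.

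Monocyte markers were low in all libraries. The 17 markers summed to 72.5, 58.8 and 101 CPM in Control, to 57.7, 61.4 and 61.0 in 4wk STZ, and to 77.5, 107, 65.6 and 126 in 8wk STZ, with 0 of 15 tested markers called and a median log2 fold change of 0.31. Of those 15, 9 had a higher value in 8wk STZ than in Control. Ccr2, the receptor that marks recruited monocytes, was at 3.93 ± 0.618 CPM in Control (SD, n = 3) and 3.03 ± 1.08 in 8wk STZ (SD, n = 4). Ms4a4c was at 16.9 ± 5.30 CPM in Control and 26.3 ± 17.6 in 8wk STZ, with 52.5 in 8wk STZ 2. Itgal was at 8.90 ± 6.43 CPM in Control and 11.8 ± 8.74 in 8wk STZ. Ly6c2 had 247 reads over all 10 libraries. The part of monocytes in the Lyz2 level was not tested.

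Cells known for the highest lysozyme content left few reads. The neutrophil genes S100a8 and S100a9 had 13 and 8 reads over all libraries, Ly6g 5 and Retnlg 2. The 12 neutrophil markers summed to 327-450 CPM in the Control libraries, 249-364 in 4wk STZ and 323-366 in 8wk STZ, nearly all of it Csf3r, and 0 of 2 tested were called. The Paneth cell genes Defa24, Defa17, Defa30 and Mmp7 had no read in any library. Others of that list were counted: Ang4, a Paneth cell gene, had 179 reads in all, and Olfm4, a gene of intestinal crypts and of neutrophils, was at 10.5 ± 3.83 CPM in Control (SD, n = 3) and 5.66 ± 2.05 CPM in 8wk STZ (SD, n = 4). The 11 markers of that list summed to 7.54-15.1, 6.28-11.3 and 4.90-9.02 CPM in the same order of groups, with 0 of 3 tested called. The part of either cell type in the Lyz1 and Lyz2 levels was not tested.

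Of the remaining lists, rod markers ran opposite to Lyz2 across the groups. The 10 dendritic cell markers summed to 22.8-32.5 CPM in the Control libraries, 22.0-36.9 in 4wk STZ and 34.5-41.6 in 8wk STZ. Of 8 tested, 4 had a higher value at 8wk than in Control. The 1 called was Batf3, higher by 0.83 on the log2 scale (edgeR adjusted p = 0.0461), called in 0 of 7 fits with a library left out. Batf3 made up most of the sum, at 15.5 ± 2.38 CPM in Control (SD, n = 3) and 27.5 ± 2.61 in 8wk STZ (SD, n = 4). The mean sums there were 26.7 and 37.6 CPM. The 12 T, NK and B cell markers summed to 42.5-53.4 CPM in the Control libraries, 45.1-64.5 in 4wk STZ and 49.3-55.8 in 8wk STZ, with 0 of 6 tested called. Most of that sum was Cd79b, with means of 43.7, 51.3 and 45.6 CPM in the same order of groups. Cd3e, Cd3d and Cd3g had 49, 28 and 166 reads over all libraries. The 16 rod photoreceptor markers summed to 13269-14805 CPM in the Control libraries, 7294-10643 in 4wk STZ and 4792-6041 in 8wk STZ. All 16 fell at 8wk against Control (median log2 fold change -1.44), and 7 fell at 8wk against 4wk STZ. With a library left out, Gngt1 and Nr2e3 were called against Control in 2 of 7 fits, Rp1 in 3 and the other rod genes in 7. Against 4wk STZ, 0 listed genes were called without 4wk STZ 3, 8wk STZ 1, 8wk STZ 3 or 8wk STZ 4. The part of rod transcripts in the Lyz1 and Lyz2 values was not tested.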

How the data were processed

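RNA was sequenced from sorted retinal cells of 10 Cx3cr1GFP/+ mice. The authors deposited 1 table of read counts per gene for all libraries. Bcl2fastq, STAR, featureCounts of the Subread package, Salmon, edgeR and limma are named in the submitters' processing notes, with build GRCm38; the annotation release, the use of strand and the handling of reads that fit several genes are not given in the sources used. The authors also deposited a table of their own comparisons, with log2 fold changes, p-values (false discovery rates) and a likelihood ratio score per gene as deposited; its fold changes and rates are quoted only where that table is named, and its score was not used.

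Of 55774 entries in the count table, 287 that repeated a gene identifier were dropped, leaving 55487 genes. The counts were fitted with edgeR 4.0.16 in R 4.3.3 (TMM factors, filterByExpr, quasi-likelihood F-test, 1 fit of all 10 libraries with 7 residual degrees of freedom), and p-values were adjusted by Benjamini-Hochberg over the 18957 genes tested. A gene was called at an adjusted p under 0.05. The common biological coefficient of variation was 0.564. A verb of change is used only for called genes. The fit was tested on simulated data. Log2 CPM used a prior count of 2. Alternatives used DESeq2 1.42.0, limma 3.58.1 (voom), other scalings, no filter, a replicate block, a border macrophage covariate and left-out libraries. Gene positions and transcripts came from GENCODE vM21 and promoters from RefSeq, both on GRCm38.

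The members and the 14 gene lists (209 genes) were chosen with earlier results of these data known. The genes named are Lyz1 and Lyz2. From each list they are up to 4 called members by smallest p or else the 2 with the highest mean CPM, with the first 4 markers of marker lists added where needed. They also include tested genes within 250 kb, and the 5 genes most correlated with Lyz2 by each of 2 measures. Both leave out predicted genes, and the correlated genes also pseudogenes, Xist and Y-linked genes. A further gene, left out of these lists, is not reported here.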

Additional observations from a re-analysis of the deposited data

Results flagged for a closer look

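The values of 77 genes and summed lists were checked for a library far from the rest of its group in the 8wk STZ group of 4, and 3 genes had one; chance alone gives about 1 in 20. Lyz1 and Lyz2 were not among them. Ms4a4c, a monocyte marker, was at 52.5 CPM in 8wk STZ 2 against 15.4 to 20.4 CPM in the other 8wk STZ libraries. Ly6c2, another monocyte marker, was at 0.823 CPM in 8wk STZ 4 against 0 to 0.0995 CPM. Cd3g, a T cell receptor complex gene, was at 0.537 CPM in 8wk STZ 4 against 0 to 0.0199 CPM. Lyz2 stood at 1525 CPM in 8wk STZ 4 and at 871 CPM in 8wk STZ 2, the second and the third of its 4 libraries.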

How the results depend on the processing

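The log2 fold changes of Lyz2, Lyz1 and their sum were above 0 under every alternative run in all 3 contrasts, whereas the calls moved. At 8wk STZ against Control, Lyz2 had 1.98 without the filter on low counts (adjusted p = 0.124) and 2.15 without Control 3 and 4wk STZ 3 together (0.05003), neither of them called, and the sum had 1.98 without the filter. With 1 library left out the ranges were 1.64 to 2.17 for Lyz2, 1.67 to 2.14 for Lyz1 and 1.64 to 2.17 for the sum. Over all alternatives the adjusted p ran from 3.2e-05 to 0.124 for Lyz2 and from 8.49e-05 to 0.152 for Lyz1. At 8wk STZ against 4wk STZ, calls appeared with DESeq2 (1.44 for Lyz2, 1.42 for Lyz1, 1.44 for the sum) and with edgeR's likelihood ratio test (1.45, 1.43 and 1.45). With the border macrophage covariate, Lyz2 (1.44) and the sum (1.44) were called and Lyz1 was not. At 4wk, left-out libraries gave 0.19 to 0.75 for Lyz2, 0.15 to 0.86 for Lyz1 and 0.19 to 0.75 for the sum, none called.

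The replicate numbers did not pair the libraries: correlations of deviations between libraries of 1 number ran from -0.03 to 0.03. A fit with the replicate block gave 1.81 for Lyz2, 1.77 for Lyz1 and 1.81 for the sum at 8wk STZ against Control, none called, with 44 genes called at 8wk STZ against Control and 0 at 8wk STZ against 4wk STZ, of them 7 and 0 listed.

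Genes called at 4wk STZ against Control went from 0 to 12 without the filter, 299 with DESeq2, 244 with the likelihood ratio test and 0 to 1 with a library left out. Those at 8wk STZ against Control went from 449 to 1436 with DESeq2, 1166 with the likelihood ratio test, 275 without Control 3 and 4wk STZ 3, and 206 to 255 with a library left out. Those at 8wk STZ against 4wk STZ went from 174 to 277 without the filter, 995 with DESeq2, 759 with the likelihood ratio test, 92 with the covariate, 100 with only the 2 groups, 6 without both libraries, and 13 to 118 with a library left out. Listed genes called went from 0 to 4, 16 and 12 at 4wk (no filter, DESeq2, likelihood ratio test), from 27 to 18 without both libraries and 17 to 24 with a library left out at 8wk against Control, and from 7 to 14, 25, 23, 4, 3 and 0 at 8wk against 4wk (no filter, DESeq2, likelihood ratio test, covariate, only the 2 groups, without both libraries), with 0 to 8 when a library was left out. Rises were 41.0% of calls at 8wk against Control, 66.0% with library totals, which moved the median of all genes by 0.10, and 30.9% with upper quartile scaling; against 4wk STZ they were 43.1%, 70.8% and 31.2%. Gatc reversed, from -0.08 to 0.0215 with library totals, and ran from -0.238 to 0.0148 with a library left out, the highest value without Control 1. Of 738 values of 41 other named genes, 619 kept direction and call, 110 lost the call and 7 gained it. The cause was not tested.

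Groups of 3 and 4 animals limit every call, and at this depth counting error is small for Lyz2 and larger for Lyz1.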
